A study of Mus musculus with 2 samples.

Results

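Notch signalling runs between cells that touch. A ligand of the Jagged or Delta-like family on one cell binds a Notch receptor on its neighbour, the receptor is cut by an ADAM protease and then by γ-secretase, and the freed intracellular domain joins the DNA-binding protein RBPJ to switch on repressors of the Hes and Hey families. In the heart the pathway is known for its part in valve and trabecular development, in arterial identity of the endothelium and in the growth of young cardiomyocytes. The genes described here are the receptors *Notch1* to *Notch4*, the ligands *Jag1*, *Jag2* and *Dll4*, and the target repressors *Hes1*, *Hey1* and *Hey2*. Every probe set whose annotation names one of them and no other gene was taken, which gave 19 probe sets of the 45101 on the array, for 10 of the 18193 genes measured. No symbol had to be updated, and no probe set that names several genes names one of them.

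The genes were measured on 2 Affymetrix arrays, which held RNA of neonatal ventricular cardiomyocytes in primary culture (mNVCM) from the hearts of C57BL6/J mice 2 days after birth. One array held RNA of cells given the secretome of human amniotic fluid stem cells (conditioned medium, hAFS-CM) for 3 h and then 1 μM doxorubicin (Dox), and the other held RNA of cells given 1 μM Dox with no such pre-treatment. Both cultures had first been kept for 1 h in medium with 0.5% serum. Dox, an anthracycline used against tumours, binds DNA and blocks type II topoisomerases. The study's methods say that this hAFS-CM came from hypoxic cells, and that for each experiment the stem cells were isolated from pooled amniotic fluid samples. How many hearts went into each culture is not given in the sources used here. The treatment protocol in the labels gives 6 h of Dox for both arrays, whereas the sample characteristics give 6 h for hAFS-CM + Dox and 21 h for Dox. The study's methods give 6 h of Dox for gene expression and 21 h for apoptosis and viability. Pre-treatment and hours of Dox as labelled cannot be told apart here. No untreated cells were among the arrays used here, so no value shows what Dox itself did. With 1 array per condition there is no replicate check, standard error or p-value, and precision is limited by the number of arrays.

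Values are log2 expression made by RMA, and each difference is a log2 ratio, hAFS-CM + Dox over Dox. The median of all values was 5.10 and their 25th percentile 3.80. The only spread these arrays offer is that between probe sets of the same gene, whose log2 ratios had an SD of 0.21 (the probe set SD) over 5299 of the 9010 genes with several probe sets. It holds no variation between cultures. The label of the cells was checked against 12 cardiomyocyte markers. All 12 lay at or above the 75th percentile of all values (7.52) on both arrays, among them *Myl2*, the ventricular regulatory myosin light chain, with log2 values of 14.99 for hAFS-CM + Dox and 15.05 for Dox. *Myl7*, the atrial one, had 14.59 for hAFS-CM + Dox and 14.64 for Dox. The markers thus do not tell ventricular from atrial cells. At or above that percentile on both arrays there were also 8 of 11 fibroblast markers, 8 of 11 mural cell markers, 6 of 15 endothelial markers, 4 of 10 macrophage markers and 4 of 7 epicardial markers, where 6618 of all 18193 genes lay there. Since the RNA is that of a whole culture, fewer cells of a type and less RNA per cell cannot be told apart in any value below.

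*Hey2* was the only target repressor with a promoter window to search, and that window carried the letters that RBPJ prefers. The motif GTGGGAA was searched on both strands in windows from 250 bases before to 50 bases after each annotated start (RefSeq, GRCm38.p6), which were at hand for 8 of the 10 genes. *Hes1* and *Hey1* had no window. *Hey2* held the motif once on each strand, and the other 7 genes did not hold it. Of 32851 windows in all, 6.38% held it, 0.256% held it at least 2 times and 0.10% held it on both strands. The stretch of *Hey2* from the first base of its window to the end of the second match is shown because it holds both copies. It lies on the minus strand at chr10:30842781-30843033 and is written 5′ to 3′ with the copies in capitals.
Hey2: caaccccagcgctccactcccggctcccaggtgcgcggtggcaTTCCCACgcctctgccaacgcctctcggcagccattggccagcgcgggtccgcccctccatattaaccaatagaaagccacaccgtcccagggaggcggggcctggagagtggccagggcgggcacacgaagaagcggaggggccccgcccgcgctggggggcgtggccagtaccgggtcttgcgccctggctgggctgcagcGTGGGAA
The first copy, TTCCCAC, is the motif on the opposite strand and begins 207 bases before the annotated start, and the second, GTGGGAA, begins 4 bases before it. A match of letters is a description of the window and not a site of binding. The absence of the motif from a window says only that these letters are not there.

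The 3 target repressors among the 10 genes had nearly equal values on both arrays. They do not stand for all genes that active Notch can switch on. Others, given below, had ratios of larger size, such as *Nrarp* at 0.43 and *Heyl* at -0.70 at the brightest probe set of each. *Hes1*, a bHLH repressor that holds back differentiation, had a log2 value of 9.51 for hAFS-CM + Dox and 9.52 for Dox at its only probe set (1418102_at), which gave a log2 ratio of -0.012. *Hey1*, a related repressor that acts in the atrial myocardium and the endothelium, had 7.14 for hAFS-CM + Dox and 7.15 for Dox at its only probe set (1415999_at), which gave a log2 ratio of -0.017. *Hey2*, which is known for its part in the compact ventricular myocardium, had 5.31 for hAFS-CM + Dox and 5.27 for Dox at its only probe set (1418106_at), which gave a log2 ratio of 0.046. All 3 ratios lay well inside the probe set SD of 0.21. Over all probe sets, 95.1% had a ratio at least as large in size as that of *Hes1*, 93.3% as that of *Hey1* and 81.7% as that of *Hey2*. The signal of *Hey2* lay just above the median of all values on both arrays. Each of these genes was read by a single probe set, and no second probe set bears on its value.

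**Figure D1:**
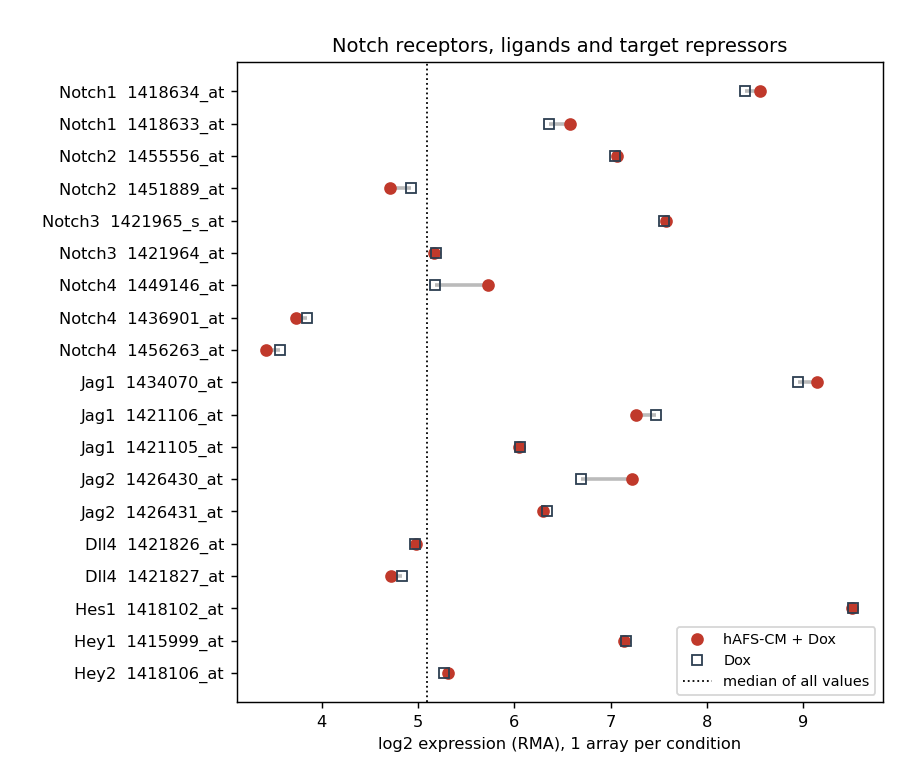
Log2 expression (RMA, x axis) of the 19 probe sets of the Notch receptors, ligands and target repressors (rows) on the hAFS-CM + Dox array (red circles) and the Dox array (open squares), 1 array per condition; a dotted line marks 5.10, the median of all values. The symbols nearly coincide for *Hes1*, *Hey1* and *Hey2*, and the widest gaps are those of Notch4 1449146_at and Jag2 1426430_at; levels are not comparable between probe sets.

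Of the 19 probe sets of the 10 genes, none was higher and none was lower by 2-fold or more, the threshold that the study used. Over all probe sets, 0.355% were higher and 0.222% were lower by 2-fold, so a count of 0 among 19 is near the background. At 1.5-fold the count was also 0, where 1.76% of all probe sets were higher and 1.63% were lower. The median log2 ratio of the 19 was -0.012, beside 0.0017 for all probe sets. Their ratios ran from -0.21 to 0.55, with 9 above 0 and 10 below. By more than the probe set SD, 3 were higher and 1 was lower, whereas 16.4% of all probe sets were higher and 15.8% were lower by it. Of the 7 genes with several probe sets, 6 had ratios of both signs among them, and *Notch1* alone had ratios of one sign.

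Of the 9 probe sets of the receptors, 2 were higher and 1 was lower by more than the probe set SD, and one of *Notch4* had the largest ratio. *Notch1*, the receptor that is expressed in endocardium and in immature cardiomyocytes, had log2 values of 8.55 for hAFS-CM + Dox and 8.40 for Dox at its brighter probe set (1418634_at), which gave a log2 ratio of 0.15. Its other probe set (1418633_at) had 6.57 for hAFS-CM + Dox and 6.36 for Dox, which gave a log2 ratio of 0.22. Both lay on the same side of 0 and differed from each other by 0.064. The second passed the probe set SD by a margin too small to show at 2 decimals.

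*Notch2*, a receptor with broad expression that includes smooth muscle, had 7.07 for hAFS-CM + Dox and 7.05 for Dox (1455556_at), which gave a log2 ratio of 0.021. Its other probe set (1451889_at) had 4.71 for hAFS-CM + Dox and 4.92 for Dox, which gave a log2 ratio of -0.21. Both values lay below the median of all values. This is the receptor probe set counted as lower, and it too passed the probe set SD by a margin too small to show at 2 decimals. *Notch3*, the receptor of vascular smooth muscle and pericytes, had 7.58 for hAFS-CM + Dox and 7.55 for Dox (1421965_s_at), which gave a log2 ratio of 0.028. Its other probe set (1421964_at) had 5.17 for hAFS-CM + Dox and 5.19 for Dox, which gave a log2 ratio of -0.017. The first of these is of a type, marked _s_at, whose probes can match more than one transcript. Both *Notch3* probe sets thus gave a ratio within 0.03 of 0.

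*Notch4*, a receptor found mainly in endothelium, had the largest ratio of the 19 probe sets. Its log2 values were 5.73 for hAFS-CM + Dox and 5.18 for Dox at 1449146_at, which gave a log2 ratio of 0.55 or 1.46-fold. Of all probe sets, 4.13% had a ratio at least as large in size. The other probe sets of *Notch4* did not show it. 1436901_at had 3.73 for hAFS-CM + Dox and 3.85 for Dox, which gave a log2 ratio of -0.12, and 1456263_at had 3.42 for hAFS-CM + Dox and 3.57 for Dox, which gave a log2 ratio of -0.15. Both of these lay below the median of all values, the last of them below the 25th percentile. The value of 1449146_at for Dox, 5.18, lay just above that median of 5.10. None of the 3 probe sets is shown to be above background. The 3 probe sets spanned 0.70 on the log2 scale, the widest span among these genes, and the mean of their ratios was 0.096.

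Among the ligands, *Jag2* gave the other ratio of this size. *Jag2*, a Jagged ligand made by endothelium among other cells, had log2 values of 7.23 for hAFS-CM + Dox and 6.69 for Dox at 1426430_at, which gave a log2 ratio of 0.53 or 1.45-fold. Of all probe sets, 4.51% had a ratio at least as large in size. Its other probe set, 1426431_at, had 6.30 for hAFS-CM + Dox and 6.34 for Dox, which gave a log2 ratio of -0.038. Both probe sets of *Jag2* lay above the median of all values on both arrays.

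*Jag1*, the Jagged ligand whose loss causes heart and vessel defects, was read by 3 probe sets. At the brightest of them (1434070_at) it had 9.14 for hAFS-CM + Dox and 8.94 for Dox, which gave a log2 ratio of 0.20. At 1421106_at it had 7.26 for hAFS-CM + Dox and 7.47 for Dox, which gave a log2 ratio of -0.21, about as far on the other side of 0. That ratio lay just inside the probe set SD. The third, 1421105_at, had 6.05 for hAFS-CM + Dox and 6.06 for Dox, which gave a log2 ratio of -0.015. The mean of the 3 ratios was -0.010.

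*Dll4*, the Delta-like ligand of arterial endothelium and sprouting vessels, had 4.98 for hAFS-CM + Dox and 4.97 for Dox at 1421826_at, which gave a log2 ratio of 0.014. Its other probe set (1421827_at) had 4.72 for hAFS-CM + Dox and 4.83 for Dox, which gave a log2 ratio of -0.11. Both lay below the median of all values, so *Dll4* is the only one of the 10 genes with no probe set at or above it. Taken by gene, at its brightest probe set on average, 8 of the 10 genes had a ratio above 0 and the median was 0.037. Of all 18193 genes, 9313 had a ratio above 0. The count depends on the choice of probe set, since 9 of the 19 probe sets had a ratio above 0. With the mean of all probe sets of a gene, the median of the 10 was -0.0023. None of the 10 was 2-fold higher or lower, where 0.506% of all genes were higher and 0.214% were lower. By more than the probe set SD, *Notch4* and *Jag2* were higher and none was lower, where the shares over all genes were 17.5% and 15.5%.

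**Figure D2:**
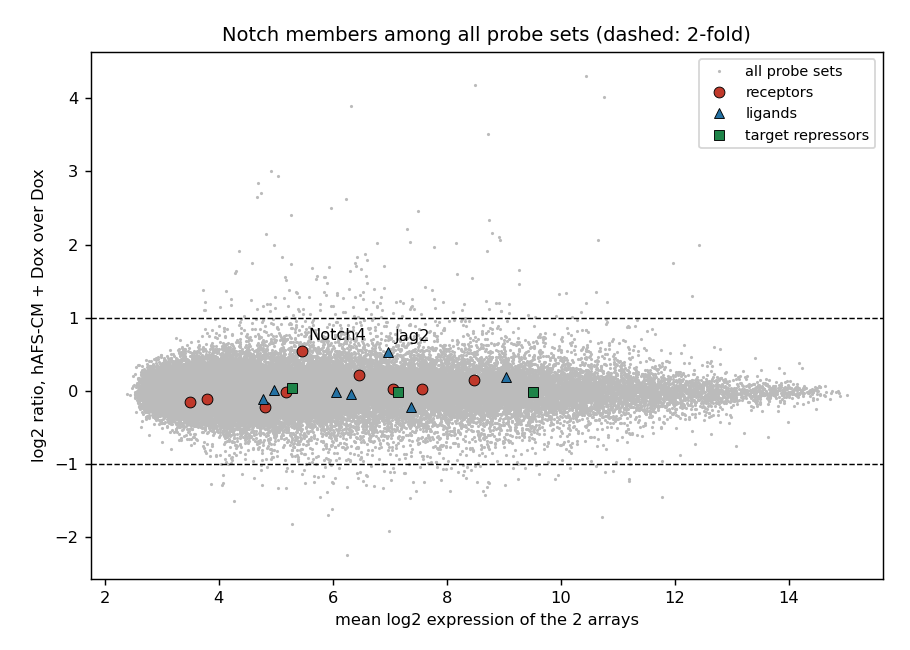
Log2 ratio (hAFS-CM + Dox over Dox, y axis) against mean log2 expression of both arrays (x axis) for all 45101 probe sets (grey) and the probe sets of the Notch receptors (red circles), ligands (blue triangles) and target repressors (green squares). Dashed lines mark 2-fold; the 19 probe sets lie between -0.21 and 0.55, all inside the dashed lines.

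The rest of the pathway was taken from lists written from textbook knowledge, which held 67 genes. Of these, 62 were measured, and the others were not analysed here. None of the 62 was 2-fold higher or lower, beside 0.506% higher and 0.214% lower among all genes. By more than the probe set SD, 8 were higher and 8 were lower, a smaller share in each direction than the 17.5% and 15.5% of all genes. In the lists below, which hold 5 to 11 measured genes each, counts past this SD stand against these same shares, and nothing particular to a list is read from them. Their median log2 ratio was 0.0038, beside 0.0058 for all genes.

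Of the 8 other ligands, 2 were higher and 1 was lower by that SD, with a median of 0.14. *Dll1*, a canonical Delta-like ligand, had the largest ratio among them, with 7.56 for hAFS-CM + Dox and 6.97 for Dox at its only probe set, which gave a log2 ratio of 0.60. *Mfap5*, a microfibril protein that can bind Notch and Jagged proteins, had 6.18 for hAFS-CM + Dox and 5.76 for Dox, which gave a ratio of 0.42 (0.35 at its other probe set). Its relative *Mfap2* had -0.31 at one probe set and 0.22 at the other.

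The enzymes that cut and glycosylate the receptors had ratios of at most 0.29 in size at the brightest probe set of each gene, whereas some of their dimmer probe sets had larger ones. Of 8 measured genes of receptor cleavage, 1 was higher and 1 was lower by the SD (median 0.0015). *Adam17*, a protease of the first cut, had 9.14 for hAFS-CM + Dox and 8.85 for Dox, which gave a ratio of 0.29 with its 3 probe sets all above 0. *Psen2*, a catalytic subunit of γ-secretase, had 8.08 for hAFS-CM + Dox and 8.32 for Dox, which gave a ratio of -0.23 (-0.11 at its other probe set). *Furin*, which cleaves the receptor on its way to the surface, had -0.11. Of 5 genes of receptor glycosylation, 1 was higher and none was lower (median -0.069). *Poglut1*, which adds O-glucose to the receptor, had 0.29. *Pofut1*, which adds O-fucose, had -0.14, with probe sets from -0.27 to 0.30. *Rfng*, a Fringe enzyme that extends the fucose, had -0.069 (0.36 at its other probe set).

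In the nucleus, *Kat2b*, a histone acetyltransferase of the coactivator complex, had the largest ratio in size. It had 11.89 for hAFS-CM + Dox and 12.24 for Dox, which gave a log2 ratio of -0.35, with its 3 probe sets from -0.49 to -0.027. It was the only one of the 6 measured genes of that complex past the SD (median -0.047). *Ep300*, another acetyltransferase, had -0.20, and *Maml1*, the Mastermind coactivator, had -0.051 (down to -0.29 at its other probe sets). Of 7 measured corepressors of RBPJ and of its targets, 1 was higher by the SD and none was lower (median 0.0031). *Spen*, which recruits histone deacetylases to RBPJ, had -0.15. The Groucho-type corepressors *Tle4* and *Tle3* had 0.10 and 0.082, with probe sets from -0.38 to 0.12 and from -0.33 to 0.13. The 1 that was higher was *Tle2*, another of that type, with 0.30 and a value of 4.39 for hAFS-CM + Dox and 4.08 for Dox, both below the median of all values. *Tle2* was named after its values were seen.

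Of 11 genes of endocytosis and turnover, none was higher by the SD and 1 was lower (median 0.0078). It was *Dtx3*, a member of the Deltex ubiquitin ligase family, with 6.79 for hAFS-CM + Dox and 7.20 for Dox at its only probe set, which gave a ratio of -0.41. *Numb*, the inhibitor that sends Notch to degradation, had 0.19 (-0.13 at its other probe set), and its relative *Numbl* had -0.11.

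The other genes listed as targets of Notch, or as relatives of its targets, did not share a direction. Of 7 further genes of the Hes and Hey families or of Notch feedback, which need not all be Notch targets, 1 was higher and 2 were lower by the SD (median -0.041). *Nrarp*, an inhibitor of the Notch complex that Notch itself induces, had 7.33 for hAFS-CM + Dox and 6.89 for Dox, which gave a log2 ratio of 0.43, and its other probe set gave 0.34. *Heyl*, a Hey family repressor of smooth muscle, had 4.92 for hAFS-CM + Dox and 5.61 for Dox, which gave a ratio of -0.70. Its 3 probe sets reached up to 0.21. The probe set at 0.21 lay below the median of all values on both arrays, and the brightest did so for hAFS-CM + Dox. *Hes6*, a Hes protein that opposes *Hes1*, had 8.65 for hAFS-CM + Dox and 8.93 for Dox, which gave a ratio of -0.28 (-0.36 at its other probe set). Of 10 genes outside these families that Notch can control, 2 were higher and 2 were lower (median 0.036). *Bmp10*, a growth factor of the developing myocardium, had 5.49 for hAFS-CM + Dox and 6.22 for Dox at its only probe set, which gave a ratio of -0.74. *Ccnd1*, cyclin D1, had 10.63 for hAFS-CM + Dox and 11.12 for Dox, which gave a ratio of -0.49, and its 3 probe sets ran from -0.70 to -0.42. *Myc*, a growth regulator, had 8.16 for hAFS-CM + Dox and 7.63 for Dox at its only probe set, which gave a ratio of 0.54. Many other pathways control *Myc* and *Ccnd1* as well.

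**Figure D3:**
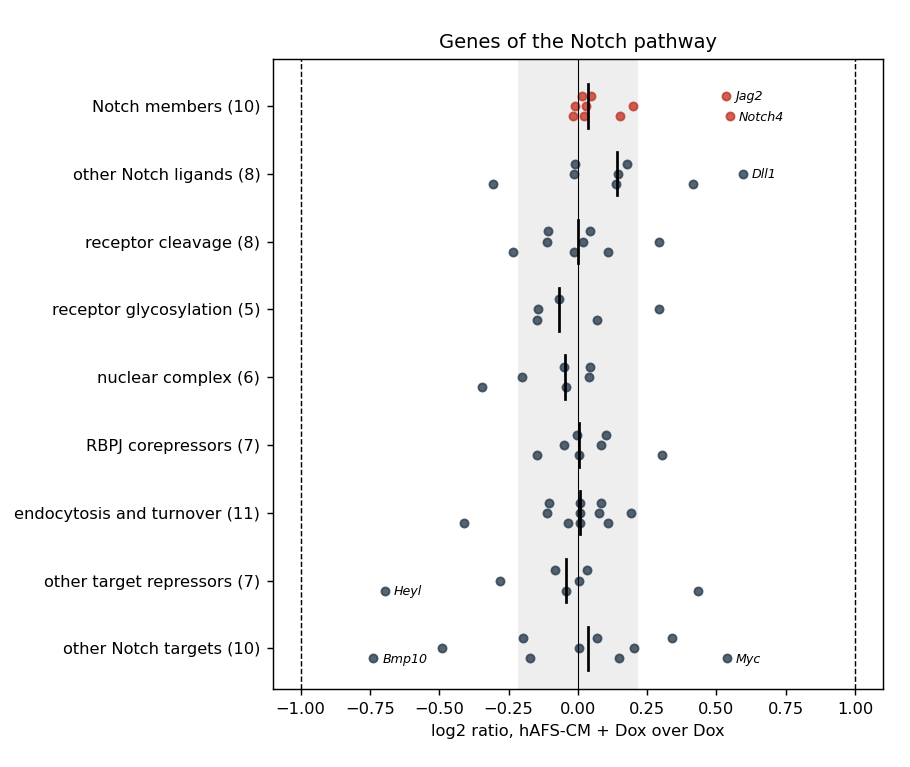
Log2 ratio (hAFS-CM + Dox over Dox, x axis) of each gene of the Notch pathway at its brightest probe set, by list (rows, number of measured genes in brackets; red, the 10 genes described here). Black bars are medians, the grey band is 1 probe set SD (0.21) and dashed lines mark 2-fold; no gene reaches 2-fold, and *Bmp10*, *Heyl* and *Dll1* lie farthest from 0.

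*Notch4* and *Jag2*, which had the largest ratios among the 10 genes, and *Dll4* are known from endothelium, and *Notch3* from mural cells, so markers of these cells were set beside them. Of 15 endothelial markers, 11 had a ratio above 0, as did 9313 of all 18193 genes. By the probe set SD, 2 were higher and 1 was lower, where 17.5% of all genes were higher and 15.5% were lower. None of the 15 was 2-fold higher or lower (median 0.11), and none lay below the median of all values. The sum of their linear signals was 4002 for hAFS-CM + Dox and 3809 for Dox. Its largest terms were *Emcn*, *Eng* and *Cdh5*, with log2 values of 10.17, 9.49 and 9.07 for hAFS-CM + Dox. *Robo4*, an endothelial guidance receptor, had 0.36, *Sox17*, a transcription factor of arteries, had 0.34 (0.56 at its other probe set), and *Emcn*, an endothelial sialomucin, had 0.054. Among the endothelial markers below 0, *Tek*, the 1 lower by the SD, had -0.22 and *Kdr* had -0.18. Of 11 mural cell markers, 8 had a ratio above 0, 4 were higher by the SD and none was lower (median 0.16), and the sum of their linear signals was 44089 for hAFS-CM + Dox and 42293 for Dox. The largest terms of that sum were *Acta2*, *Des*, *Tagln* and *Abcc9*, with log2 values of 14.40, 13.17, 12.50 and 12.05 for hAFS-CM + Dox. *Cspg4*, the proteoglycan NG2, had 0.63 (0.35 at its other probe set), *Mcam*, an adhesion molecule, had 0.34, and *Acta2*, smooth muscle actin, had -0.0067. Also below 0 were *Kcnj8* at -0.087 and *Abcc9* at -0.17 (-0.44 and -0.64 at its other probe sets). Several mural markers, *Acta2* among them, are also expressed by neonatal cardiomyocytes. Of the 12 cardiomyocyte markers, all had a ratio below 0, and 4 were lower by the SD (median -0.14), with *Pln*, the inhibitor of the calcium pump of the sarcoplasmic reticulum, at -0.57 and *Myh7*, a myosin heavy chain, at -0.27. The part of these cell types in the ratios of *Notch4* and *Jag2* was not tested.

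**Figure D4:**
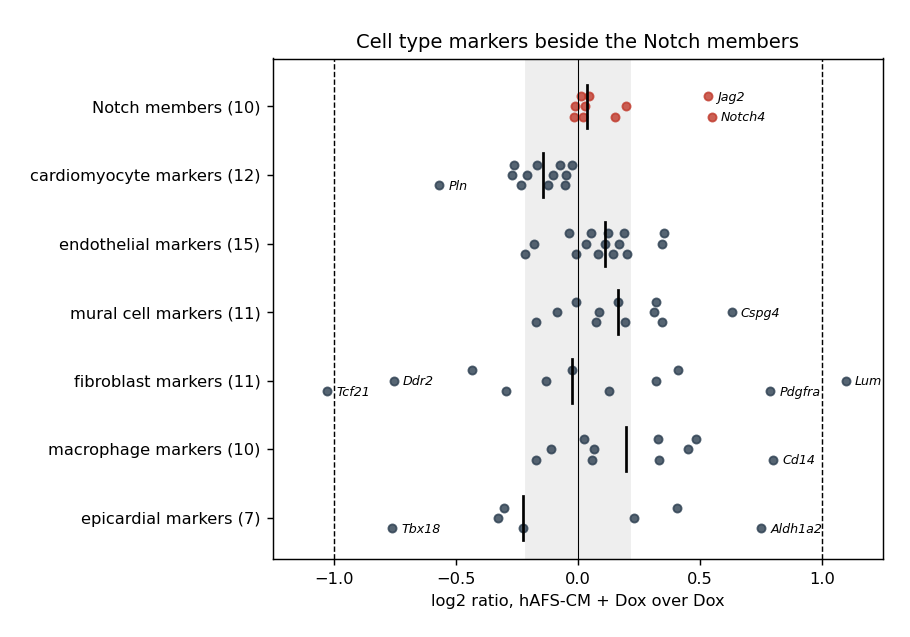
Log2 ratio (hAFS-CM + Dox over Dox, x axis) of markers of 6 cell types beside the 10 Notch genes (red), each gene at its brightest probe set, in rows with the number of measured genes in brackets. Black bars are medians (0.11 for endothelial, 0.16 for mural cell and -0.14 for cardiomyocyte markers), the grey band is 1 probe set SD (0.21) and dashed lines mark 2-fold.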

How the data were processed

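RNA of mNVCM was hybridised to 2 Affymetrix mouse arrays, 1 for hAFS-CM + Dox and 1 for Dox. Each deposited log2 value summarises a probe set by RMA, which the authors ran with quantile normalization, and no further scaling was done. The log2 scale was read from the range of the deposited values, 2.37 to 15.05. For the software and the chip definition, the processing was not given in the sources used here. Of 34958 probe sets with 1 gene in the platform annotation, 34754 were matched by Entrez ID to RefSeq genes on GRCm38.p6, which gave current symbols. A gene took the value of its brightest probe set, by the mean of both arrays. Log2 ratios were counted at 2-fold, with no test, as there was 1 array per condition. The SD between probe sets of one gene was pooled over genes with at least 2 probe sets with at least 1 array at or above the median.

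The genes, the pathway and marker lists and the alternatives were chosen with earlier results of these data known. Besides the 10 genes, up to 3 genes per pathway list and 2 per marker list with the largest ratios at or above the median signal were named, with the marker of the highest mean value. In addition, *Tle2*, *Myl7*, *Tek*, *Kdr*, *Eng*, *Cdh5*, *Des*, *Tagln*, *Abcc9* and *Kcnj8* were named after their values were seen. Names for patterns like those of the 10 genes were not sought, since 2 arrays hold 1 difference only. Alternatives comprised 1.5-fold and 3-fold thresholds, 2 minimum signals, centring, lowess (span 0.3), leaving out less specific probe set types, and 2 other ways to give a gene its value. The counting and the SD were tested on simulated data. Computations used pandas 2.3.3 with numpy 2.4.6 under Python 3.11.15, lowess came from statsmodels 0.14.6, and plots from matplotlib 3.10.9.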

Additional observations from a re-analysis of the deposited data

How the results depend on the processing

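None of the 10 genes was past the threshold under any of the 9 alternatives, 1.5-fold and 3-fold included. None of their probe sets was past it under the 7 that apply to single probe sets. Only the 1.5-fold threshold could have changed these counts. The largest ratio of any of these probe sets was 0.55, short of 2-fold. A 3-fold threshold, a filter or another choice of probe set cannot raise it. Centring moved ratios by 0.0017, and lowess moved those of these genes by at most 0.019. The median log2 ratio of the 10 genes ran from -0.0023 to 0.046 and that of the probe sets from -0.016 to 0.024, on both sides of 0. Of the wider pathway, 3 genes were past 1.5-fold, *Dll1*, *Heyl* and *Bmp10*, and none was past the threshold under the other alternatives. The largest ratio in size there was -0.74, for *Bmp10*, so a 3-fold threshold or a signal filter could not have added a gene. By the choice of probe set, the ratio of *Notch4* was 0.096 and that of *Jag2* 0.25 with the mean of all probe sets, and those of *Notch2* and *Jag1* were -0.21 and -0.21 at the probe set with the largest change. *Notch3*, with its _s_at probe set left out, had -0.017. *Dll4* dropped out at the median filter. No replicate could be left out, and no paired analysis was possible because there was 1 array per condition.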

Other observations

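The other cell types whose markers were measured did not shift as one. Of 11 fibroblast markers, 4 were higher and 4 were lower by more than the probe set SD (median log2 ratio -0.024). Among all genes 17.5% were higher and 15.5% were lower by this SD, and the counts for the other cell types below stand against the same shares. *Lum*, the proteoglycan lumican, was 2-fold higher, with log2 values of 9.50 for hAFS-CM + Dox and 8.41 for Dox. *Tcf21*, a transcription factor of cardiac fibroblasts, was 2-fold lower, with 6.15 for hAFS-CM + Dox and 7.18 for Dox. Its other probe set had a ratio of 0.18, with both values below the median of all values. *Dcn*, the proteoglycan decorin, had a ratio of 0.41.

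Of 10 macrophage markers, 5 were higher by that SD and none was lower (median 0.20). *Cd14*, a coreceptor for bacterial lipopolysaccharide, had 0.80, and *Lyz2*, lysozyme, had -0.11. *Ptprc*, the leukocyte antigen CD45, had 0.48. Its other probe set had -0.088, with both values below the 25th percentile of all values. Of 7 epicardial markers, 3 were higher and 4 were lower (median -0.23). *Tbx18*, an epicardial transcription factor, had -0.76 (-0.97 at its other probe set), *Aldh1a2*, the enzyme that makes retinoic acid, had 0.75, and *Krt19*, a keratin, had -0.23. With 1 array per condition, none of these values has a replicate check.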
